A study of Arabidopsis thaliana with 4 samples.

Results

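The genes described here are the nuclear genes of Arabidopsis thaliana for the light-harvesting antenna and for the photosystem subunits. They were chosen by name and locus: 41 genes of the 33602 loci in the table, in 4 families. LHCB (14 genes) is the antenna of photosystem II, LHCA (6 genes) the antenna of photosystem I, PSA (11 genes) the nuclear-encoded subunits of photosystem I, and PSB (10 genes) those of photosystem II. All 41 were found in the table. What was counted at them is small RNA, not messenger RNA: RNA below 200 nt from the aerial tissue of 18-day-old plants, grown at 22 °C with 16 h of light and 8 h of dark.

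Each of 4 genotypes was sampled in 1 library. Wild type was Col-0. The ein5-1 ski2-3 line (the double mutant below) carries a mutant allele in EIN5, the cytoplasmic exonuclease that degrades mRNA from its 5′ end, and another in SKI2, a helicase that feeds RNA to the cytoplasmic exosome from the 3′ end. In the rdr6-11 line the mutated gene is RDR6, an RNA-dependent RNA polymerase that copies aberrant transcripts into double-stranded RNA, the precursor of small interfering RNA. The line rdr6-11 ein5-1 ski2-3, called the triple mutant, carries all these alleles, and no line had ein5-1 or ski2-3 alone, so their effects cannot be told apart. How many plants went into a library is not given in the labels.

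Light-harvesting proteins bind chlorophyll and pass excitation energy to the photosystems, which drive electrons from water to ferredoxin. Their mRNAs are made in the nucleus, translated in the cytosol and imported into the chloroplast, and they are among the most abundant mRNAs of a leaf. An mRNA that loses its cap or tail is normally destroyed by the EIN5 and SKI2 pathways, and RDR6 can instead turn such a transcript into a source of small interfering RNA.

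The 4 libraries were of like depth, with 808276 reads for Col-0, 621515 for ein5-1 ski2-3, 878632 for rdr6-11 and 877589 for the triple mutant, so 1 read was worth between 1.14 and 1.61 RPM (reads per 1000000 reads in the table). Reads at miRNA genes made up 31.2% to 53.7% of a library, and reads at protein-coding loci 9.90% in Col-0, 18.8% in ein5-1 ski2-3, 10.1% in rdr6-11 and 16.6% in the triple mutant. Reads at the TAS loci, whose small RNAs need RDR6, were 7.14% and 2.50% of the table in the libraries with RDR6, and 0.0126% and 0.0518% in the 2 rdr6-11 libraries. Chloroplast loci took 9.57%, 9.81%, 21.2% and 27.1% of the reads in the same order of libraries. The leaf marker genes RBCS1A, RCA and CA1 together had 79 reads in Col-0, 69 in ein5-1 ski2-3, 64 in rdr6-11 and 258 in the triple mutant, 3 root markers had none, and 3 flower markers had 0 to 11.

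No genotype has a second library, so no difference could be checked against replicates and no test was made. Folds are ratios of RPM, and the interval after each is an exact conditional binomial 95% interval, which covers counting error only. Genes counted as called are those 4-fold or more apart, after adding 1 read to each count, with 50 or more reads on the higher side. In this order of libraries (Col-0, double mutant, rdr6-11, triple mutant), 16, 11, 19 and 26 of the 41 genes reached 50 reads, and the same 26 are those that reached it in any library. The other 15 are given by their ranges. The table has no read size or strand, so small interfering RNAs could not be told apart from pieces of mRNA, nor sense from antisense reads.

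Summed over the 41 genes there were 3462 reads in Col-0, 2663 in ein5-1 ski2-3, 8607 in rdr6-11 and 20318 in the triple mutant. That is 0.428% of the table in Col-0, 0.428% in ein5-1 ski2-3, 0.980% in rdr6-11 and 2.32% in the triple mutant. The triple mutant was the highest library and the 2 libraries with RDR6 were level. Among reads at protein-coding loci the genes took 4.33%, 2.28%, 9.74% and 14.0% in the same order. The triple mutant had the highest RPM for 35 of the 41 genes, and the double mutant had the lowest for 13.

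A single gene, LHCA4 (AT3G47470, chromosome 3), held 44.8% of these reads in Col-0, 31.7% in ein5-1 ski2-3, 64.1% in rdr6-11 and 68.2% in the triple mutant. Leaving it out, 1912, 1820, 3088 and 6464 reads remained, and the triple mutant was still the highest library. Sums are therefore given with and without LHCA4.

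**Figure D1:**
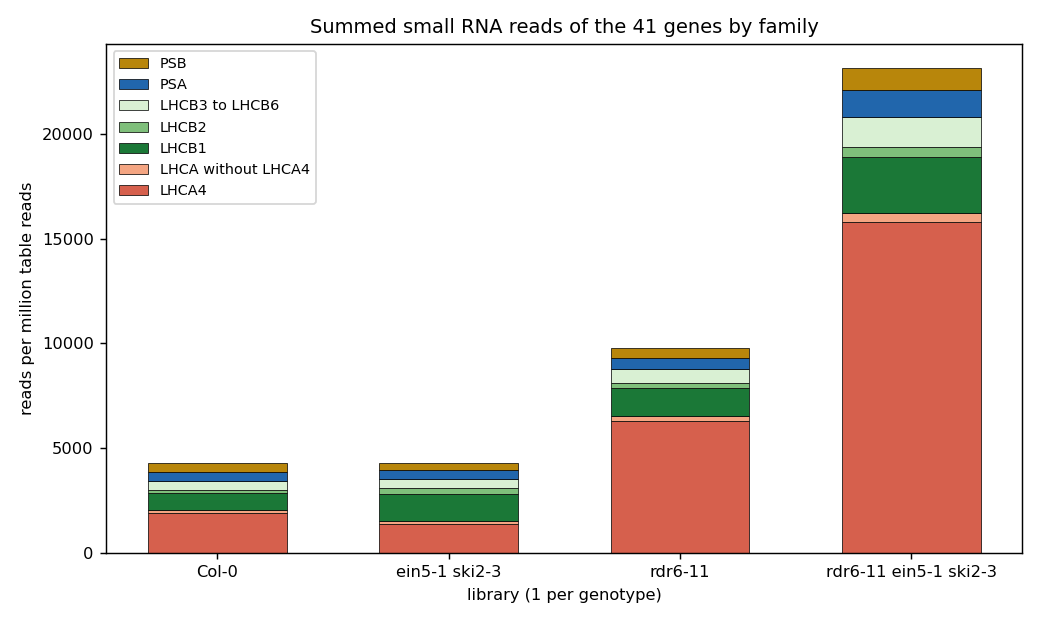
RPM (y axis, from 0) summed by family in the 4 libraries (x axis, 1 library per genotype), stacked from LHCA4 at the base to PSB at the top. LHCA4 is the tallest block in every library, and the triple mutant stack is the highest, at 2.32% of all reads.

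Several of the genes are close copies, and a short read from one can match another, so the sequences come before the values. Every stretch of 21 bases in each gene was looked up on both strands of the RefSeq TAIR10.1 genome. In the LHCB1 genes, 42.3% (LHCB1.1), 42.6% (LHCB1.2), 44.4% (LHCB1.3), 29.3% (LHCB1.4) and 41.6% (LHCB1.5) of these 21-base windows also occurred elsewhere. For LHCB2.1 and LHCB2.2 it was 40.1% and 43.4%, and the windows that this pair has in common were 35.6% and 43.0%. In LHCA2, the share was 20.4%, mostly with the locus AT5G28450. In each of the other 33 genes it was at most 4.01%, and in LHCA4 it was 0 of 1671 windows.

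**Figure D2:**
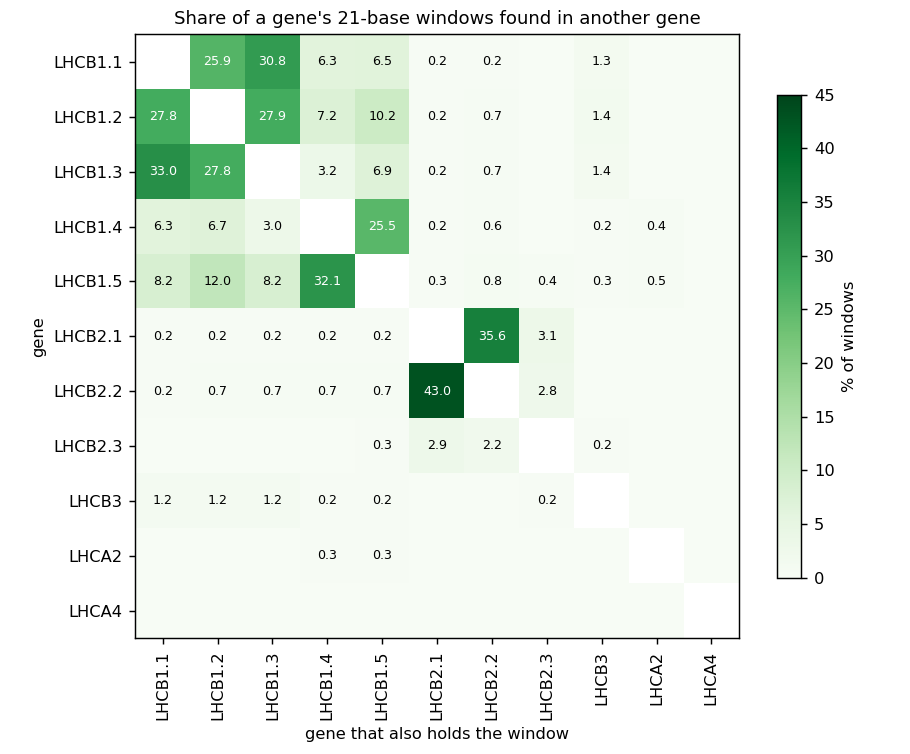
Percent of the 21-base windows of 1 gene (rows) that also occur in another gene (columns), for LHCB1, LHCB2, LHCB3, LHCA2 and LHCA4. LHCB1.1, LHCB1.2 and LHCB1.3 form 1 block, LHCB1.4 and LHCB1.5 another, LHCB2.1 and LHCB2.2 another, and LHCA4 shares none.

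How reads that match several places were assigned is unknown. The split of reads among the LHCB1 copies, and between LHCB2.1 and LHCB2.2, is therefore uncertain. Their sums, and the counting intervals of those sums, are uncertain too, since such a read may have been dropped or counted at several copies. Whether either happened was not tested. The coding sequences of LHCB1.1, LHCB1.2 and LHCB1.3, neighbours on chromosome 1, were 95.6% to 96.4% identical. LHCB1.4 and LHCB1.5, on chromosome 2, were 91.4% identical to each other and 86.8% to 90.4% identical to the others. A run of 35 coding bases was identical in all 5 copies. It spans coding bases 661 to 695 of LHCB1.1, counted from the first base of the start codon (TAIR10.1 chr1:10475198-10475232, minus strand). A read from it cannot be placed on 1 copy, and it is shown for that reason.
LHCB1 shared run: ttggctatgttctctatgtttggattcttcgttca

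The 60-base coding window in which the 5 copies differ at most positions shows how few bases separate them. It lies at chr1:10475626-10475685 in LHCB1.1, chr1:10472980-10473039 in LHCB1.2 and chr2:14523253-14523312 in LHCB1.5 on the minus strand, and at chr1:10478278-10478337 in LHCB1.3 and chr2:14525022-14525081 in LHCB1.4 on the plus strand (TAIR10.1). Capitals mark bases that differ from LHCB1.1, of which there are 6 in LHCB1.2, 6 in LHCB1.3, 10 in LHCB1.4 and 6 in LHCB1.5.
LHCB1.1: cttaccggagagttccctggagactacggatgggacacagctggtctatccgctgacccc
LHCB1.2: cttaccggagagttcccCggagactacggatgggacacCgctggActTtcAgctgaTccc
LHCB1.3: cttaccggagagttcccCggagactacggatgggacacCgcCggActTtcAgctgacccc
LHCB1.4: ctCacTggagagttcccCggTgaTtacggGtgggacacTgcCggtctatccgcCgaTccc
LHCB1.5: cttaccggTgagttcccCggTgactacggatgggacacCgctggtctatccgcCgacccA

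LHCB2.1 and LHCB2.2 were 96.6% identical in their coding sequence, with a longest identical run of 152 bases. LHCB2.3 was 85.5% and 84.4% identical to them, and only 3.84% of its windows occurred elsewhere, so its reads can be placed better. The most divergent 60-base coding window of the 3 lies at chr2:1824243-1824302 (LHCB2.1, minus strand), chr2:1800241-1800300 (LHCB2.2, minus strand) and chr3:10256031-10256090 (LHCB2.3, plus strand). Capitals mark differences from LHCB2.1, 9 in LHCB2.2 and 13 in LHCB2.3.
LHCB2.1: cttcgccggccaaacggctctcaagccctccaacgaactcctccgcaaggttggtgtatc
LHCB2.2: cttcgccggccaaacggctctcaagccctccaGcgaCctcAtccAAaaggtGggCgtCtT
LHCB2.3: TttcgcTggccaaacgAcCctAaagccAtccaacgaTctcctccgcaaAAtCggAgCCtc

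PSAD1 and PSAD2 encode the same photosystem I subunit from different chromosomes, and PSAD1 is the gene called in both decay comparisons below. Their coding sequences were 86.3% identical, but 3.23% of PSAD1 windows and 2.78% of PSAD2 windows occurred elsewhere. The most divergent 60-base coding window, at chr4:1229442-1229501 in PSAD1 and chr1:753723-753782 in PSAD2 (both on the minus strand), holds 13 differences, in capitals.
PSAD1: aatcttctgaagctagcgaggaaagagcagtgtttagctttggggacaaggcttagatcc
PSAD2: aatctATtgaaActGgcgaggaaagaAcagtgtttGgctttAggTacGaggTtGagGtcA
It is followed directly by the longest run they share, 35 bases, in which the copies cannot be told apart.
PSAD shared run: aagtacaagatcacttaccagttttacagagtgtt

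Of the 41 genes, 16 overlap another annotated gene in TAIR10.1, and 15 of these overlap one that has its own row in the table. These overlapping genes held at most 16 reads in any library. LHCA4 overlaps ATSMC2 by 53 bases, and ATSMC2 had 4 reads in Col-0, 0 in ein5-1 ski2-3, 4 in rdr6-11 and 0 in the triple mutant.

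**Figure D3:**
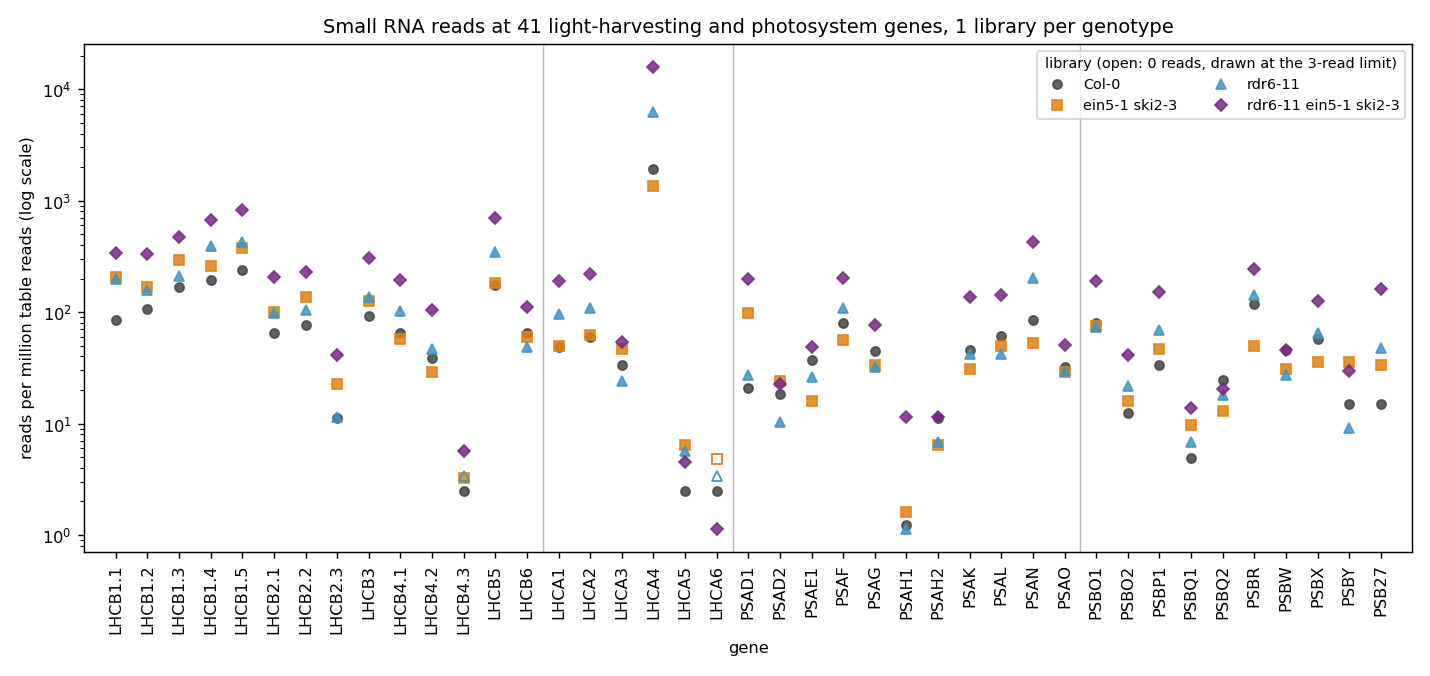
RPM (y axis, log scale) at each of the 41 genes (x axis, ordered LHCB, LHCA, PSA, PSB) in the 4 libraries, with 0 reads drawn as an open symbol at the 3-read limit. The triple mutant (diamonds) is highest for 35 genes, and LHCA4 lies above every other gene in each library.

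LHCB1 encodes the main protein of the antenna trimer of photosystem II. LHCB1.5 (AT2G34420) had 191 reads in Col-0, 234 in ein5-1 ski2-3, 370 in rdr6-11 and 725 in the triple mutant. LHCB1.4 (AT2G34430) had 156, 161, 341 and 590 reads in the same order. For LHCB1.3 (AT1G29930) the reads were 137, 183, 186 and 417. In all 3 the triple mutant was highest and Col-0 lowest.

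LHCB1.2 (AT1G29910) had 87, 104, 139 and 290 reads, and LHCB1.1 (AT1G29920) had 68, 127, 173 and 300. Their order of libraries by RPM put the double mutant slightly above rdr6-11, at 167 against 158 RPM for LHCB1.2 and 204 against 197 RPM for LHCB1.1. LHCB1.3 had the same order with a wider gap, at 294 against 212 RPM. The share of each copy in the LHCB1 sum differed between libraries. LHCB1.5 made up 28.9% to 31.2%, LHCB1.4 19.9% to 28.2%, LHCB1.3 15.4% to 22.6% and LHCB1.2 11.5% to 13.6%. LHCB1.1 made up 10.6% to 15.7%, lowest in Col-0 and highest in the double mutant.

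LHCB2, the second trimer protein, showed the same order of extremes. LHCB2.2 (AT2G05070) had 62 reads in Col-0, 84 in ein5-1 ski2-3, 92 in rdr6-11 and 202 in the triple mutant. LHCB2.1 (AT2G05100) had 53, 62, 87 and 180. LHCB2.3 (AT3G27690) had only 9 to 36 reads.

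LHCB3 (AT5G54270), the remaining trimer protein, had 74 reads in Col-0, 78 in ein5-1 ski2-3, 120 in rdr6-11 and 270 in the triple mutant. The minor antenna proteins sit between trimer and core. LHCB5 (AT4G10340) among them had 140, 114, 305 and 619 reads, so its 2 libraries without RDR6 stood above both with it. LHCB4.1 (AT5G01530) had 52, 36, 89 and 169 reads, and LHCB4.2 (AT3G08940) had 31, 18, 41 and 92.

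LHCB6 (AT1G15820) had 52, 37, 43 and 98 reads, with the triple mutant alone standing above the rest. LHCB4.3 (AT2G40100) had at most 5 reads in any library.

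LHCA4 pairs with LHCA1 in the belt of antenna proteins around photosystem I and carries its far-red chlorophylls. It had 1550 reads in Col-0, 843 in ein5-1 ski2-3, 5519 in rdr6-11 and 13854 in the triple mutant. Per length of locus, the authors' RPKM was 1127, 797, 3744 and 9299, while the next gene, LHCB1.5, had 221, 352, 399 and 774 RPKM. Among all protein-coding loci, LHCA4 ranked 4 by reads in Col-0, 10 in ein5-1 ski2-3, 2 in rdr6-11 and 1 in the triple mutant. Its lowest library was the double mutant, and its reads lay at a different scale from those of its partner LHCA1.

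LHCA1 (AT3G54890) had 39, 31, 84 and 167 reads, and LHCA2 (AT3G61470) had 48, 39, 96 and 192. For both, Col-0 and the double mutant were level by RPM and rdr6-11 and the triple mutant stood above them. LHCA3 (AT1G61520) had 21 to 47 reads. LHCA5 (AT1G45474) and LHCA6 (AT1G19150), minor proteins that link photosystem I to the NDH complex, had at most 5 reads, and LHCA6 had 0 in the double mutant and in rdr6-11, which allows up to 4.83 and 3.41 RPM.

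PSAD and PSAE dock ferredoxin on the stromal side of photosystem I. PSAD1 (AT4G02770) had 17 reads in Col-0, 61 in ein5-1 ski2-3, 24 in rdr6-11 and 175 in the triple mutant. Here the 2 libraries with ein5-1 ski2-3 were the high ones, a pattern unlike LHCA4. PSAD2 (AT1G03130) had 15, 15, 9 and 20 reads, and PSAD1 made up 53.1% of the PSAD reads in Col-0, 80.3% in ein5-1 ski2-3, 72.7% in rdr6-11 and 89.7% in the triple mutant. PSAE1 (AT4G28750) had 10 to 43 reads.

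PSAF and PSAN lie on the lumenal side, where plastocyanin delivers electrons. PSAN (AT5G64040) had 69 reads in Col-0, 33 in ein5-1 ski2-3, 176 in rdr6-11 and 371 in the triple mutant, the same order of libraries as LHCA4. PSAF (AT1G31330) had 64, 35, 95 and 177 reads, again lowest in the double mutant.

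PSAG and PSAK are membrane subunits at the edge of the complex, and PSAL, PSAH and PSAO form the side that accepts the photosystem II antenna. PSAK (AT1G30380) had 37, 19, 37 and 119 reads, PSAL (AT4G12800) 49, 31, 37 and 126, and PSAG (AT1G55670) 36, 21, 28 and 67. In these 3 genes the triple mutant stood alone above the others. PSAO (AT1G08380) had 18 to 44 reads, PSAH2 (AT1G52230) 4 to 10, and PSAH1 (AT3G16140) 1 read in each library but the triple mutant, which had 10.

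PSBO, PSBP and PSBQ form the oxygen-evolving shield of photosystem II, and PSBR lies beside it. PSBO1 (AT5G66570) had 64 reads in Col-0, 47 in ein5-1 ski2-3, 65 in rdr6-11 and 167 in the triple mutant. PSBP1 (AT1G06680) had 27, 29, 61 and 134 reads. PSBR (AT1G79040) had 95, 31, 126 and 214, with the double mutant lowest. PSBO2 (AT3G50820) had 10 to 36 reads, PSBQ1 (AT4G21280) 4 to 12 and PSBQ2 (AT4G05180) 8 to 20.

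PSB27 (AT1G03600), a lumenal protein that assists assembly and repair of photosystem II, had 12 reads in Col-0, 21 in ein5-1 ski2-3, 42 in rdr6-11 and 141 in the triple mutant. PSBX (AT2G06520), a small membrane subunit, had 46, 22, 57 and 110. The other small membrane subunits stayed below 50 reads, at 19 to 40 for PSBW (AT2G30570) and 8 to 26 for PSBY (AT1G67740). By RPKM the order of the 41 genes was much alike in all libraries, with a Spearman correlation across genes of 0.89 to 0.97 between any 2 libraries. This is a description of the 41 genes, which share their lengths, and genes are not replicates.

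The first comparison asks what the ein5-1 ski2-3 mutations did with RDR6 intact. Scaled to the table total, the summed share of the 41 genes was level between the double mutant and Col-0 (1.00-fold, 0.951 to 1.05), and without LHCA4 it was 1.24-fold higher (1.16 to 1.32). Both sums depend on the scaling. With LHCA4 in, the sum was 0.877-fold by median of ratios (0.833 to 0.922), 0.812-fold by TMM, 0.689-fold with a total without small RNA and organelle loci and 0.528-fold with reads at protein-coding loci, below 1 in each. Without LHCA4, the sum ranged from 0.653 to 1.24 over the other scalings, so its direction changed too. Over the same pair of libraries, the reads at all other protein-coding loci were 1.94-fold higher (1.92 to 1.95). Of the 17 genes that reached 50 reads in this pair, 1 (PSAD1, 5.88%) was called 4-fold higher and 0 lower. By that rule, 57.2% of the 285 protein-coding loci that reached 50 reads in one library or the other were called higher and 4.91% lower. PSAD1 was 4.67-fold higher (2.69 to 8.52), but the call is lost when libraries are scaled by median of ratios or TMM, with a total without small RNA and organelle loci, to reads at protein-coding loci, with a pseudocount of 5, or with a minimum of 100 reads. At 2-fold, 2 of the 17 genes were higher (PSAD1 and LHCB1.1, 11.8%), while 64.2% of the 285 loci passed that mark. On the lower side, 1 of the 17 genes (PSBR) and 41 of the 285 loci passed 2-fold.

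The families behaved differently in this comparison. LHCB1 was 1.65-fold higher in the double mutant (1.48 to 1.83) and LHCB2 1.68-fold (1.32 to 2.14), although scaling to reads at protein-coding loci turns both below 1, to 0.869 and 0.885. All 5 LHCB1 genes had intervals above 1, from 1.34-fold for LHCB1.4 (1.07 to 1.68) to 2.43-fold for LHCB1.1 (1.8 to 3.31). LHCB3 to LHCB6 together stood at 1.06-fold (0.900 to 1.24), the LHCA genes without LHCA4 at 1.14-fold (0.863 to 1.49), PSA at 0.914-fold (0.774 to 1.08) and PSB at 0.855-fold (0.717 to 1.02), and these 4 intervals include 1 when the table total is the scale. With reads at protein-coding loci all 4 lie below 1, at 0.557, 0.599, 0.482 and 0.451, and by median of ratios PSA (0.801) and PSB (0.749) do. PSA without PSAD1 was at 0.724-fold (0.602 to 0.868).

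LHCA4 itself was 1.41-fold lower in the double mutant (1.30 to 1.54). PSBR was 2.36-fold lower (1.56 to 3.66), PSAE1 2.31-fold (1.10 to 5.29) and PSAN 1.61-fold (1.05 to 2.51). These are the 4 genes whose interval lay below 1. The interval lay above 1 for 10 genes, which were the 5 LHCB1 genes, LHCB2.1, LHCB2.2, PSAD1, PSBY and PSB27. It included 1 for the other 24 of the 38 genes with more than 3 reads in either library. Over 4995 protein-coding loci with a fold, most of them below 50 reads and so with wide intervals, 23.8% lay above 1 and 2.80% below. With protein-coding reads as the scale, 1 of the genes lay above 1 and 20 below, and the share of all loci under that scale was not computed. Across the 26 genes with at least 50 reads, the share of windows found elsewhere and the log2 fold of this comparison had a Spearman correlation of 0.72. Without the LHCB1 and LHCB2 genes it was 0.51 over 19 genes, whose shares of windows are almost all near 0. Whether the treatment of reads that match several copies had a part in the LHCB1 and LHCB2 folds was not tested.

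The second comparison sets rdr6-11 against Col-0. The summed share was 2.29-fold higher in rdr6-11 (2.20 to 2.38), and 1.49-fold higher without LHCA4 (1.40 to 1.57). Other protein-coding loci together stood at 0.959-fold (0.949 to 0.968). None of the 20 genes that reached 50 reads in this pair passed 4-fold in either direction, where 4.55% of 154 protein-coding loci were called higher and 9.09% lower. At 2-fold, 5 of the 20 genes were higher (LHCB1.1, LHCB1.4, LHCA4, PSAN and PSBP1), which is 25% and near the 20.8% of the 154 loci.

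LHCA4 was 3.28-fold higher in rdr6-11 (3.10 to 3.47). PSB27 was at 3.22-fold (1.66 to 6.72), PSAN at 2.35-fold (1.77 to 3.15), LHCB1.1 at 2.34-fold (1.76 to 3.15), PSBP1 at 2.08-fold (1.30 to 3.40) and LHCB5 at 2.00-fold (1.64 to 2.47). By family, LHCB was 1.65-fold higher (1.53 to 1.78), LHCA without LHCA4 1.61-fold (1.27 to 2.03), PSA 1.20-fold (1.05 to 1.39) and PSB 1.19-fold (1.03 to 1.38). None of these sums turns below 1 under the other scalings. The locus lengths that the authors used differ between the pair of libraries with RDR6 and the pair without it, so any difference in handling between the pairs cannot be told apart from RDR6. The counting interval lay above 1 for 14 of 38 genes and below 1 for 0. Over 3811 protein-coding loci with a fold, most of them below 50 reads and so with wide intervals, 5.56% lay above 1 and 4.25% below.

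The third comparison asks what the ein5-1 ski2-3 mutations did in the rdr6-11 background. Here nearly all the genes were higher. The summed share was 2.36-fold higher in the triple mutant than in rdr6-11 (2.30 to 2.42), and 2.10-fold without LHCA4 (2.01 to 2.19). Other protein-coding loci together were higher too, at 1.57-fold (1.56 to 1.58), and the 3 leaf markers stood at 4.04-fold (3.06 to 5.39). The part of these shifts in the folds of the light-harvesting and photosystem genes was not tested. The log2 fold was above 0 for 40 of the 41 genes, with a median of 1.06, and for 37 when scaled to reads at protein-coding loci. Among the 26 genes that reached 50 reads in this pair all were above 0, with a median of 1.10, and among 309 other protein-coding loci past the same minimum 78.0% were, with a larger median of 1.38. LHCA5, at 5 reads against 4, was the exception. The families had like folds: LHCB 2.00 (1.90 to 2.11), LHCA without LHCA4 2.00 (1.69 to 2.37), PSA 2.52 (2.26 to 2.81) and PSB 2.12 (1.89 to 2.39). Under the other scalings these 4 family folds ranged down to 1.21 and stayed above 1. LHCA4 was at 2.51-fold (2.44 to 2.59).

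Only PSAD1 of the 26 genes (3.85%) passed 4-fold in the third comparison, 7.30-fold higher (4.75 to 11.7), and 0 genes were lower. The background was 33.7% called higher and 0.896% lower of 335 protein-coding loci. At 2-fold the picture was near the background: 17 of the 26 genes (65.4%) were higher, against 61.8% of the 335 loci. The interval lay above 1 for 33 of 39 genes and below 1 for 0. Over 5617 protein-coding loci with a fold, most of them below 50 reads and so with wide intervals, 25.6% lay above 1 and 2.08% below. With protein-coding reads as the scale, 14 genes lay above 1, and the share of all loci under that scale was not computed. Fold size varied little among the LHCB1 genes, from 1.73 (1.51 to 1.99) for LHCB1.4 to 2.24 (1.88 to 2.68) for LHCB1.3. After PSAD1 the largest folds among genes with at least 50 reads were 3.41 (2.35 to 5.06) for PSAL, 3.36 (2.37 to 4.86) for PSB27 and 3.22 (2.21 to 4.79) for PSAK.

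How the genes compare with other protein-coding loci depends on which loci are read. With 50 reads in either library, the median log2 fold of the double mutant over Col-0 was 0.42 for 17 genes and 2.95 for 268 other loci, so the genes lay far below the others. In the third comparison they also lay lower, at 1.10 against 1.38. They lay higher in the second, at 0.61 (20 genes) against -0.03 (134 loci), and in triple over double mutant, at 1.58 (26) against -0.02 (386).

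That rule admits loci with few or no reads in the second-named library, while a minimum of 50 reads in the second-named library leaves those out and leans towards low folds. Under the latter, the medians in the first comparison were 0.25 (16 genes) and -0.70 (100 other loci), which turns the order round. The third turned too, with 1.02 for 19 genes, all above 0, and -0.27 for 113 other loci, of which 39.8% were above 0. In the second the medians were 0.58 (16) and -0.20 (100). No order between the genes and the other loci is therefore given for the first and the third comparison.

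**Figure D4:**
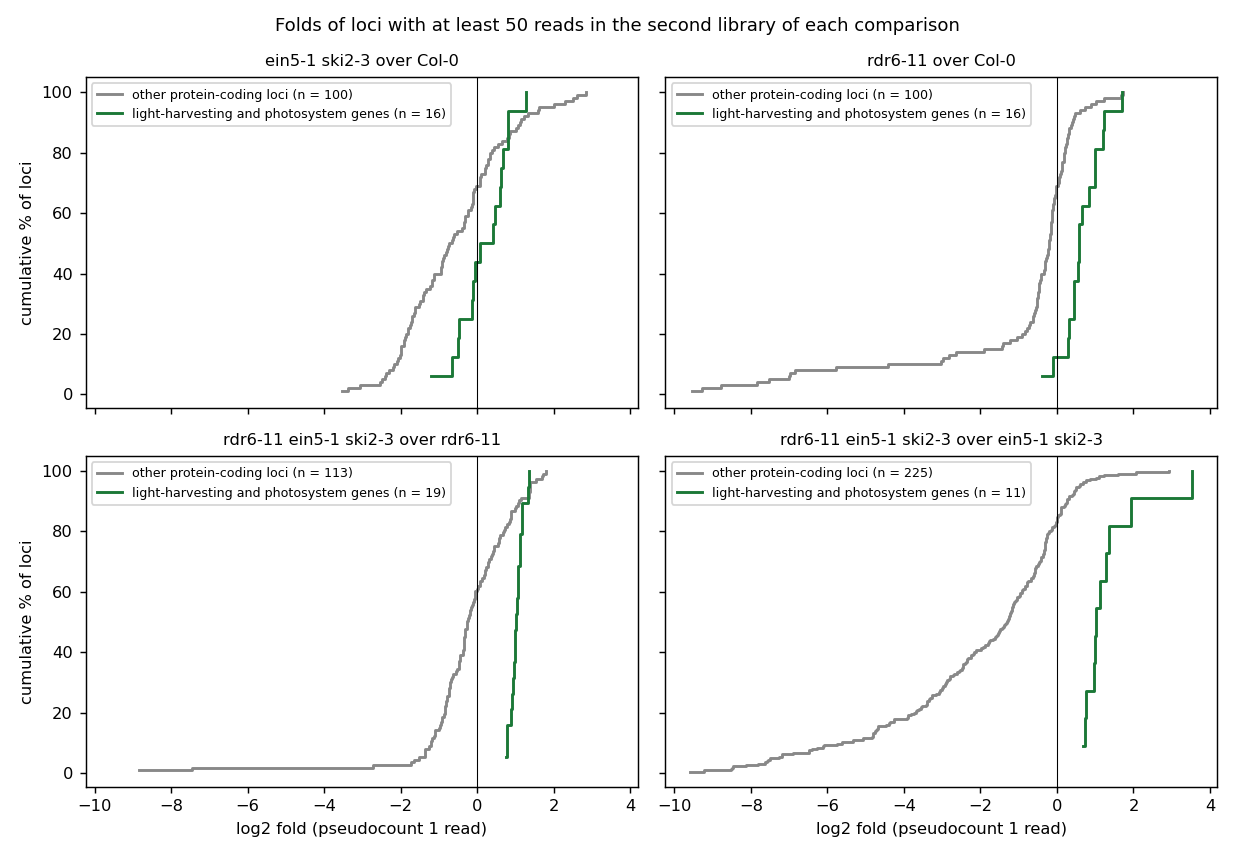
Cumulative percent of loci (y axis) against log2 fold (x axis, pseudocount of 1 read) in the 4 comparisons, for loci with at least 50 reads in the second-named library. With this minimum the light-harvesting and photosystem genes lie to the right of the other protein-coding loci around the medians, whereas with 50 reads in either library their medians lie to the left in the first comparison (0.42 against 2.95) and the third (1.10 against 1.38).

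The fourth comparison sets the triple mutant against the double mutant, and so removes RDR6 from the decay mutant. The summed share was 5.40-fold higher in the triple mutant (5.19 to 5.63), and 2.52-fold without LHCA4 (2.39 to 2.65). Other protein-coding loci together stood at 0.777-fold (0.771 to 0.784). Of the 26 genes that reached 50 reads in this pair, 5 (19.2%) were called 4-fold higher and 0 lower. By the same rule, 14.3% of 412 protein-coding loci were higher and 22.3% lower. Scaled to reads at miRNA genes, which shifts the log2 fold of every locus by 0.78, 17 genes were higher. The share of all loci under that scaling was not computed. At 2-fold with the table total, 21 of the 26 genes (80.8%) were higher, against 33.3% of the 412 loci. The 3 leaf markers stood at 2.65-fold (2.02 to 3.51). All 26 genes reached 50 reads in the triple mutant, but only 11 did in the double mutant. A minimum in either library thus leans towards high folds for the rest. Over loci with at least 50 reads in the double mutant, the median log2 fold was 1.02 for 11 of the genes and -1.32 for 225 other protein-coding loci. With that minimum, 1 of the 11 genes was called higher and 0 lower, and of the 225 other loci 2 were higher and 92 lower.

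The 5 called genes were LHCA4 at 11.6-fold (10.9 to 12.5), PSAN at 7.96-fold (5.57 to 11.7), PSBR at 4.89-fold (3.34 to 7.37), PSB27 at 4.76-fold (2.99 to 7.92) and PSAK at 4.44-fold (2.72 to 7.63). PSAD1, called in the decay comparisons, was at 2.03-fold (1.51 to 2.77). LHCB1 and LHCB2 were at 2.03-fold (1.88 to 2.20) and 1.85-fold (1.54 to 2.23), LHCB3 to LHCB6 at 3.11-fold (2.74 to 3.55), PSA at 3.32-fold (2.89 to 3.82) and PSB at 2.96-fold (2.55 to 3.45). The interval lay above 1 for 29 of 40 genes and below 1 for 0. Over 7173 protein-coding loci with a fold, most of them below 50 reads and so with wide intervals, 9.09% lay above 1 and 11.2% below. This comparison shares a library with the first and another with the third, so its folds are not independent of theirs.

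The first comparison and the third share no library and can be set against each other. The fold of the decay mutations was larger in the rdr6-11 background than with RDR6 intact for 39 of the 41 genes (with a pseudocount of 1 read), and the counting interval of the difference excluded 0 for 18 of them. It lay below 0 for none. Of the 26 genes with at least 50 reads in any library, 25 had a larger fold in the rdr6-11 background and 16 (61.5%) had an interval above 0, with a median difference of 0.93 on the log2 scale. Of 437 protein-coding loci past the same minimum, these 26 included, 51.5% had a larger fold there, 26.1% had an interval above 0 and 21.7% one below 0, and the median over the 411 others was -0.09. All 26 genes reached 50 reads in the triple mutant, against 16 in Col-0, 11 in the double mutant and 19 in rdr6-11. For them the minimum leans towards larger differences. Of the 437 loci, 335 reached it in rdr6-11 or the triple mutant, so the 2 sets of shares are not like for like. PSAK and PSAL reached it in the triple mutant only. PSAK had the largest difference among genes with at least 50 reads, 2.21 (1.27 to 3.15), followed by PSAL at 2.01 (1.18 to 2.83), PSBR at 1.97 (1.31 to 2.63) and LHCA4 at 1.83 (1.70 to 1.96). In LHCB1.1 the difference was -0.48 (-0.98 to 0.02), and in the other 4 LHCB1 genes it was 0.30 to 0.42 with intervals that include 0. In PSAD1 it was 0.65 (-0.31 to 1.62). With 1 library per genotype this difference was not tested beyond counting error.

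**Figure D5:**
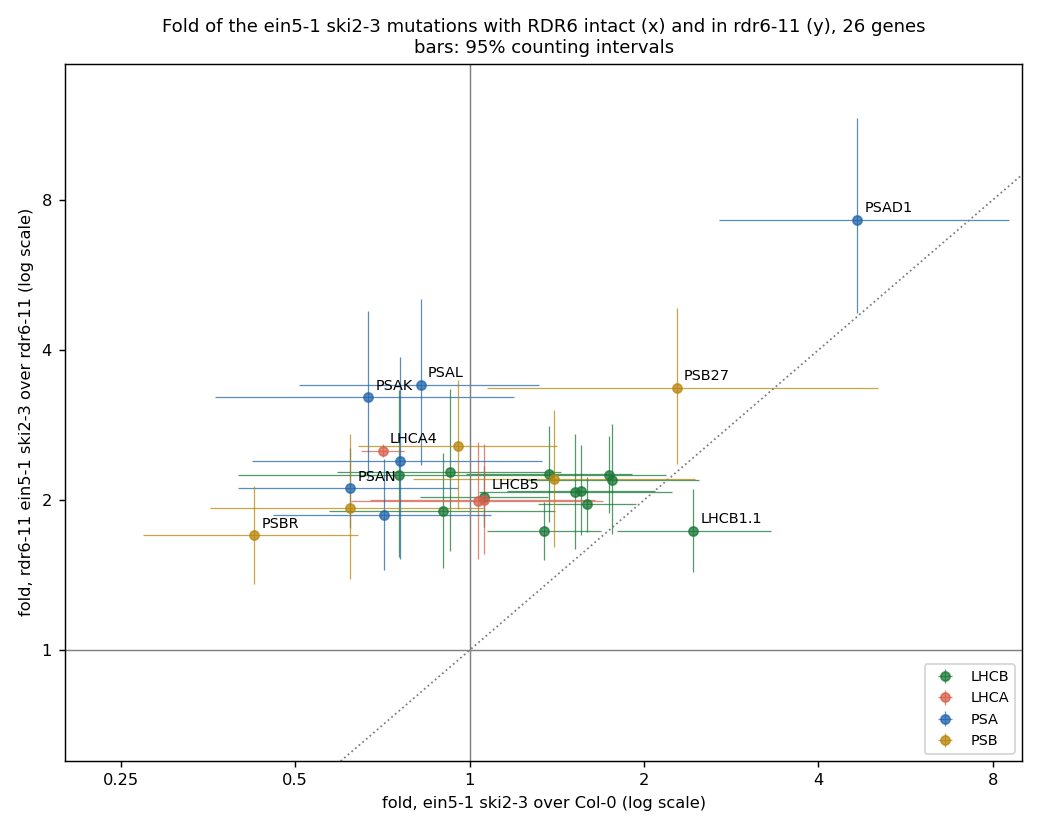
Fold of the triple mutant over rdr6-11 (y axis, log scale) against fold of the double mutant over Col-0 (x axis, log scale) for the 26 genes with at least 50 reads in any library, with 95% counting intervals as bars, a dotted line of equal folds and colours for the 4 families. All points but LHCB1.1 lie above the dotted line, and PSAD1 lies apart at 4.67 and 7.30.

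Related gene lists were read in the same way. In electron transport and ATP synthase, 13 nuclear genes together had 121 reads in Col-0, 151 in ein5-1 ski2-3, 161 in rdr6-11 and 438 in the triple mutant. PETE2, which encodes plastocyanin, and PETC, the Rieske protein of the cytochrome complex, were called higher in triple mutant over rdr6-11, at 6.51-fold (3.69 to 12.4) and 5.21-fold (2.62 to 11.5). FD2, the main leaf ferredoxin, was called in triple over double mutant, at 6.52-fold (3.39 to 14.0). Of the 13 genes, 4 reached 50 reads in any library. Among protein-coding loci with 50 reads in either library, 33.7% and 14.3% were called higher in these 2 comparisons.

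Rubisco small subunits and Calvin cycle enzymes, 24 genes, had 346, 314, 630 and 1645 reads. Of these, 10 reached 50 reads in any library. In triple over double mutant 6 of the 24 were called higher, where 14.3% of 412 protein-coding loci with 50 reads in either library were. CP12-2, a small protein that binds Calvin cycle enzymes, had 47, 9, 97 and 253 reads and was 19.9-fold higher (10.3 to 44.0). TIM, the chloroplast triose phosphate isomerase, had 2, 1, 102 and 267 reads, a ratio of 46.9 for rdr6-11 over Col-0 (12.7 to 393), which made it the only gene of the lists called there. The other 4 were RCA, GAPB, CFBP1 and RPE, at 5.23-fold, 5.17-fold, 9.05-fold and 5.90-fold. RBCS1A, a Rubisco small subunit, was called in triple mutant over rdr6-11, at 4.70-fold (2.98 to 7.73).

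CPSRP43, which carries light-harvesting proteins to the thylakoid membrane, had 6, 24, 9 and 62 reads and was called in triple mutant over rdr6-11, at 6.90-fold (3.41 to 15.8). The other 3 genes of protein import and insertion did not reach 50 reads in any library, so no call was possible. In chlorophyll synthesis (13 genes), relatives and other photosystem genes (9) and transcription of photosystem genes (4), almost no call was possible, since a single gene, CHLH of chlorophyll synthesis, reached 50 reads in any library, and it was not called. Their sums are given instead. Chlorophyll synthesis had 73 reads in Col-0, 128 in ein5-1 ski2-3, 102 in rdr6-11 and 187 in the triple mutant, which is 2.28-fold for double mutant over Col-0 (1.70 to 3.08) and 1.84-fold for triple mutant over rdr6-11 (1.43 to 2.36). With protein-coding reads these became 1.20 (0.896 to 1.63) and 1.11 (0.871 to 1.43). Transcription of photosystem genes had 11, 54, 9 and 43 reads, at 6.38-fold (3.30 to 13.5) and 4.78-fold (2.30 to 11.2) in the same comparisons, and above 1 under every scaling tried. A single gene of the 4 held 4, 35, 0 and 19 of these reads, so the sum rests largely on that gene in the double mutant. The relatives had 32, 41, 45 and 61 reads, at 1.67-fold (1.02 to 2.73) and 1.36-fold (0.908 to 2.04). Under the other scalings these folds ranged from 0.879 to 1.67 and from 0.824 to 1.98, so the direction of both depends on the scaling.

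The chloroplast-encoded partners, 8 core genes of both photosystems, summed to 5565 reads in Col-0, 2130 in ein5-1 ski2-3, 9211 in rdr6-11 and 11035 in the triple mutant. Their share was 0.498-fold in the double mutant against Col-0 (0.473 to 0.523), where the 41 nuclear genes were at 1.00-fold. It was 1.52-fold in rdr6-11 over Col-0 (1.47 to 1.57) and 1.20-fold in triple mutant over rdr6-11 (1.17 to 1.23), although scaling by TMM, to a total without small RNA and organelle loci or to protein-coding reads turns the last to 1.00, 0.911 and 0.728. In triple over double mutant it was 3.67-fold (3.50 to 3.85). Chloroplast reads as a whole were 21.2% and 27.1% in the libraries without RDR6 and 9.57% and 9.81% in the others, and their part in the nuclear gene folds was not tested.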

How the data were processed

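The study sequenced RNA shorter than 200 nt from aerial tissue, with 1 library for each of 4 genotypes, grouped by the genotype in the labels. Per the file headers, the deposited table gives for each locus the authors' count of reads and their RPKM. The submitters' processing notes name CASAVA 1.8.2, BWA and TAIR9 and no role for them. Trimming, strand, read size and the handling of reads with several matches were not given in the sources used here. RPKM is 0.001 where the count is 0. The locus lengths implied by count and RPKM are below the TAIR10.1 gene span, slightly in some genes (1661 against 1691 bases in LHCA4) and far in others (972 against 1608 in PSAH1). They differ between the Col-0 and rdr6-11 sets of libraries for 2 of the 41 genes, LHCB4.2 and PSBP1, so counts were used for every fold.

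The scale was the table total of each library (808276, 621515, 878632 and 877589 reads, 97.6% to 99.0% of the totals implied by RPKM). Printed folds of genes and sums carry no pseudocount and have exact conditional binomial (Clopper-Pearson) 95% intervals. Since reads can be PCR copies, these intervals cover counting error only. Log2 folds, medians and calls carry a pseudocount of 1 read, and the interval of a difference of log2 folds uses the normal approximation to the counting error. A fold is given only where both libraries had reads and 1 held more than 3, the floor for a count of 0. There is no test and no p-value. The call rule was tested on simulated data.

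The 41 genes, the other gene lists and the rule for naming genes were chosen with earlier results of these data known. By that rule every gene with at least 50 reads in any library is given in all libraries, the rest by range, and genes of other lists when called. Loci were matched by identifier to the TAIR10.1 RefSeq annotation (32835 of 33602), from which sequences were taken. Of each gene 1 transcript was used. Coordinates are those of matches in TAIR10.1. Alternatives changed the scaling, the minimum, the fold, the pseudocount and the genes summed, and 1 scaling, to reads at protein-coding loci, was chosen after seeing the data. Python 3.11.15, numpy 2.4.6, pandas 2.3.3, scipy 1.17.1, biopython 1.88, matplotlib 3.10.9, R 4.3.3 and edgeR 4.0.16 (TMM factors only) were used.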

Additional observations from a re-analysis of the deposited data

Results flagged for a closer look

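In 4 genes the ein5-1 ski2-3 mutations went with fewer reads where RDR6 was intact and with more reads in the rdr6-11 background, with both counting intervals apart from 1. The log2 fold in the rdr6-11 background minus that with RDR6 was 1.83 for LHCA4, 1.99 for PSAE1, 1.74 for PSAN and 1.97 for PSBR. LHCA4 fell from 1918 to 1356 RPM in the double mutant and stood at 6281 RPM in rdr6-11 and 15786 RPM in the triple mutant. PSAE1 had only 10 to 43 reads in a library. The set of 4 depends on the scaling. LHCA4 and PSAN kept both intervals apart from 1 under the 6 other scalings tried. For PSAE1 the interval in the rdr6-11 background included 1 by median of ratios (0.964 to 2.84), by TMM (0.919 to 2.71), with the total without small RNA and organelle loci (0.837 to 2.47) and with protein-coding reads (0.670 to 1.98), and for PSBR with protein-coding reads (0.825 to 1.30). The difference was not tested, since each genotype has 1 library. How many other protein-coding loci show the same pattern was not counted, so 4 genes cannot be read as many or few.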

How the results depend on the processing

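Direction held under all alternatives for the sums of rdr6-11 over Col-0, triple mutant over rdr6-11 and triple over double mutant. For the double mutant over Col-0 the sum of 1.00 became 0.877 with median of ratios, 0.812 with TMM, 0.689 without small RNA and organelle loci, 0.528 with protein-coding reads and 1.24 without LHCA4, and the median log2 fold of 0.09 became -0.10, -0.21, -0.45 and -0.84 under these 4 scalings. The sum of rdr6-11 over Col-0 became 2.63 with miRNA reads and 1.49 without LHCA4. For triple mutant over rdr6-11 it became 2.06, 1.97, 3.45 (miRNA reads), 1.79, 1.44 and 2.10, and for triple over double mutant 9.30 (miRNA reads), 5.86 (without small RNA and organelle loci), 6.12 (protein-coding reads) and 2.52 (without LHCA4). Calls in the first comparison went from 1 to 0 with median of ratios, TMM, the reduced total, a minimum of 100 and a pseudocount of 5, and to 3 at 2-fold. At 2-fold, the second comparison had 5, the third 17 and the fourth 21. With miRNA reads the third had 4 and the fourth 17, without a minimum the third had 3, and with a pseudocount of 5 the fourth had 3. Apart from settings that change the rule or leave out LHCA4, the cause was not tested. The log2 shift of every locus by scaling reached -0.92 in the first comparison, 0.20 in the second, -0.72 in the third and 0.78 in the fourth. With protein-coding reads the 1 call of the first comparison is PSBR, lower. Shares called over all protein-coding loci were computed with the table total only. Summing the LHCB1 copies as 1 locus leaves every sum the same by construction, and it changed no count of calls. The median log2 fold of triple over double mutant went from 1.13 to 1.25. This setting does not test how reads with several matches were handled. No paired analysis was possible because each genotype has 1 library. Genes below 10 reads, 3 of the 41, are too shallow for any fold to be read.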
